A study of Mus musculus with 81 samples.

Results

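The comparison described here sets the late response to an active Notch1 fragment against the early response in hybridoma cells of the mouse, a mature T cell line, 24 h against 4 h of 4-hydroxytamoxifen (4-OHT). The cells had been infected with NICD1-ER, the intracellular domain of Notch1 joined to the estrogen receptor (ER), and received 1 µM 4-OHT for 4, 8 or 24 h, or the solvent ethanol for 24 h. All cells of this experiment carried the fusion, those in ethanol included. The members were chosen by the column headings of the raw count table, replicates 1, 2 and 3 at 4 h and replicates 2 and 3 at 24 h, which makes 5 of the 81 samples of the series. The 3 libraries at 8 h and the 2 matched libraries in ethanol were read beside them. The labels give neither the promoter of the vector nor whether the infected cells were 1 clone, and do not say that replicates were separate cultures, so p-values measure only the spread between these samples. The series as a whole asked how the DNA-binding protein RBPJ represses genes in these cells.

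When a Notch receptor meets its ligand, proteases release its intracellular domain, which enters the nucleus, binds RBPJ and recruits Mastermind coactivators and histone acetyltransferases. Without Notch, RBPJ holds corepressors at the same sites. Fused to the ER hormone-binding domain, the fragment is kept inactive until 4-OHT is added, so that a time course can follow the genes that respond. In T cells the pathway is known for steering early thymocyte development and for supporting effector functions such as cytotoxicity and cytokine production.

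Library totals at 4 h and 24 h ran from 4786871 to 5342897 counts, and 3 counts corresponded to 0.561 to 0.627 CPM, a count divided by the total of its library and scaled up. Replicates 1 and 2 at 4 h differed by less than sampling noise, as did replicates 1 and 2 at 8 h, so each of these pairs was added up and used as 1 sample. Every time therefore has n = 2, and values at 4 h are given first for the summed pair and then for replicate 3. The 24 h libraries, the only pair of their group, also differed by less than sampling noise and were kept apart, so errors may understate the spread between cultures. T cell markers summed to 1110 to 1150 CPM at 4 h and 1160 to 1170 CPM at 24 h, and all 11 markers in the table had counts. B cell markers summed to 93.0 to 99.0 CPM at 4 h and 272 to 276 CPM at 24 h, but nearly all of this was Cd22, and the defining markers Ms4a1, Cd79b and Pax5 were at 0. The 9 myeloid markers summed to 30.8 to 32.8 CPM at 4 h and 43.5 to 43.9 CPM at 24 h, with Cd14 and Elane at 0. Of the 4 tested, 2 were higher: Itgam, an integrin chain, at 2.53 log2 units (adjusted p = 3.51e-04) and Cd68, a lysosomal glycoprotein, at 0.51 (adjusted p = 0.00607), the latter lost with DESeq2, without replicate 2 at 24 h and without the summed pair at 4 h. The 7 natural killer (NK) cell markers summed to 0.387 to 1.31 CPM at 4 h and 1.13 to 1.46 CPM at 24 h, with Klrd1, Klrc1 and Klra1 at 0, and the fibroblast markers to at most 0.592 CPM. The 7 erythroid markers summed to 6.31 to 11.6 CPM at 4 h and 10.3 to 13.6 CPM at 24 h. In bulk RNA fewer cells of a type and less RNA per cell cannot be told apart, and the part of such cells in the differences below was not tested.

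Between 4 and 24 h more genes passed as higher than as lower, while the median difference over all genes tested was −0.0027 log2 units. Of 11808 genes tested in edgeR, 945 were higher at 24 h (8.00%) and 639 were lower (5.41%), 1584 in all (13.4%). The higher genes moved further: their median difference was 0.41 log2 units, against 0.26 for the lower genes. By at least 1 log2 unit, 184 genes rose and 17 fell. All 1584 genes had samples that did not overlap between the times, which held for 55.4% of all genes tested. DESeq2 called 433 genes, 350 higher and 83 lower. The count was 777 without replicate 2 at 24 h, 702 without replicate 3 at 24 h and 1024 without the summed pair at 4 h.

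**Figure D1:**
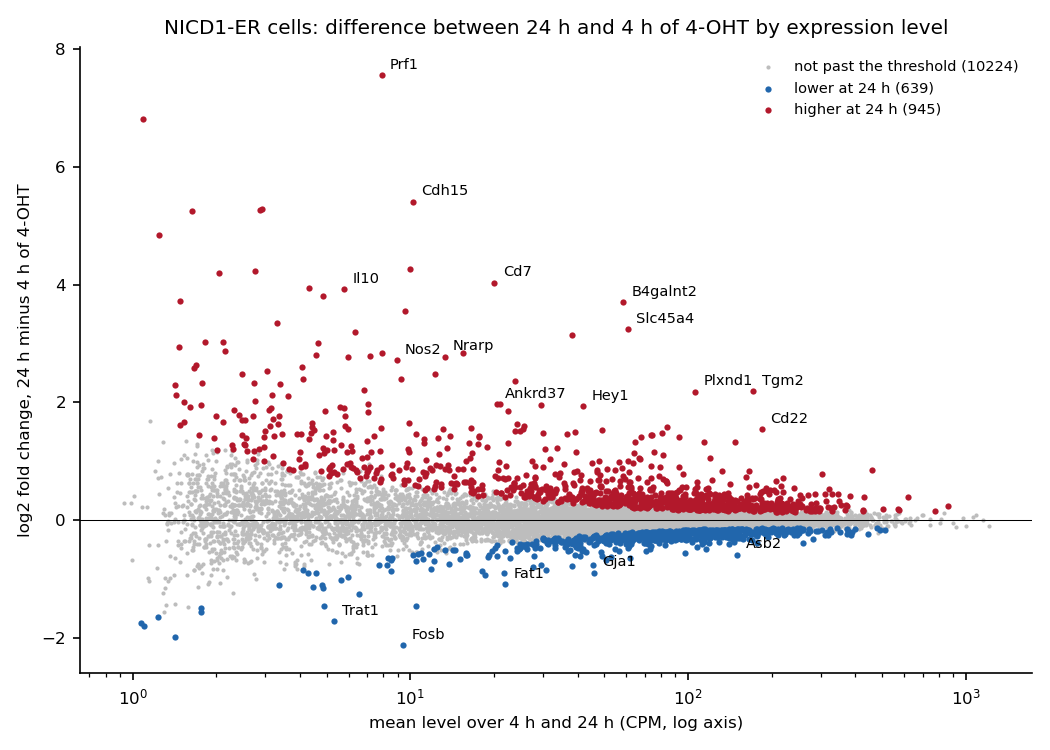
Each point is 1 of 11808 genes, with its mean level over 4 h and 24 h in CPM on a log axis and its fitted log2 difference, 24 h minus 4 h, on the vertical axis; red points are the 945 genes higher at 24 h, blue the 639 lower, grey those not past the threshold. The higher genes reach far above 2 log2 units, while Fosb, at −2.12, is the lowest of the named points; fitted values of genes with 0 to 3 counts at 4 h are no bound.

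The Notch targets Hey1, Nrarp, Dtx1 and Trib2 rose between 4 and 24 h, and Hes1 did not pass. Hey1, a transcriptional repressor of the Hairy family, was at 16.9 and 18.1 CPM at 4 h, at 31.5 and 34.7 CPM at 8 h and at 70.3 and 62.4 CPM at 24 h. The samples of the 3 times did not overlap, and ethanol lay below all of them at 3.0 and 3.07 CPM. Hey1 rose by 1.94 log2 units between 4 and 24 h (standard error, SE, 0.10, adjusted p = 1.21e-09). Here and below the SE is the size of the log2 difference divided by the square root of the F statistic of its test. It can be smaller than counting error, most of all for genes with few counts, and then understates the error. Nrarp, which encodes a feedback inhibitor of the Notch complex, was at 3.53 and 3.12 CPM at 4 h and at 24.9 and 21.7 CPM at 24 h (log2 2.78, SE 0.174, adjusted p = 1.27e-08). The step from 4 to 8 h passed the test for both, 0.92 for Hey1 (adjusted p = 3.0e-04) and 1.41 for Nrarp (adjusted p = 0.0021). Dtx1, the Deltex ubiquitin ligase gene, was already at 167 and 152 CPM at 4 h and reached 226 and 228 CPM at 24 h (log2 0.49, adjusted p = 3.04e-06). Trib2, a pseudokinase gene known as a Notch target in leukemia, stood at 62.3 and 57.7 CPM at 4 h, at 62.6 and 65.9 CPM at 8 h and at 92.3 and 87.1 CPM at 24 h (log2 0.57, adjusted p = 2.85e-05).

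Hes1, another Hairy family repressor, was at 68.7 and 69.4 CPM at 4 h, 66.3 and 68.2 CPM at 8 h and 73.9 and 70.6 CPM at 24 h. Its difference of 0.07 log2 units did not pass (SE 0.06, adjusted p = 0.573), and its ethanol samples were lower, at 43.7 and 44.6 CPM. The 4 h samples of Hes1 lay just below its 24 h samples, while those of Hey1 were far below theirs. Il2ra, the interleukin-2 receptor alpha chain, was at 266 and 277 CPM at 4 h and at 297 and 306 CPM at 24 h (log2 0.16, adjusted p = 0.0252). Myc, the growth-promoting transcription factor gene, moved the other way, from 175 and 173 to 149 and 160 CPM (log2 −0.18, adjusted p = 0.0406). Both calls were lost with DESeq2, without either 24 h library and without the summed pair at 4 h. Over all genes tested 8.00% were higher and 5.41% lower, shares to set beside the counts of each list. Of the 17 tested genes of the Notch target list, 8 were higher and 5 lower. Their median was 0.21 log2 units, against −0.0027 over all genes. The lower ones were Myc, Lef1, Tcf7, Cd44 and Bcl2, of which Lef1, a TCF family transcription factor gene, fell from 58.3 and 60.9 to 40.7 and 36.0 CPM (log2 −0.62, adjusted p = 4.64e-05). Tcf7 and Bcl2 lost their calls with DESeq2 and without replicate 2 at 24 h, Tcf7 also without replicate 3 at 24 h and without the summed pair at 4 h, and Bcl2 without replicate 3 at 4 h.

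**Figure D2:**
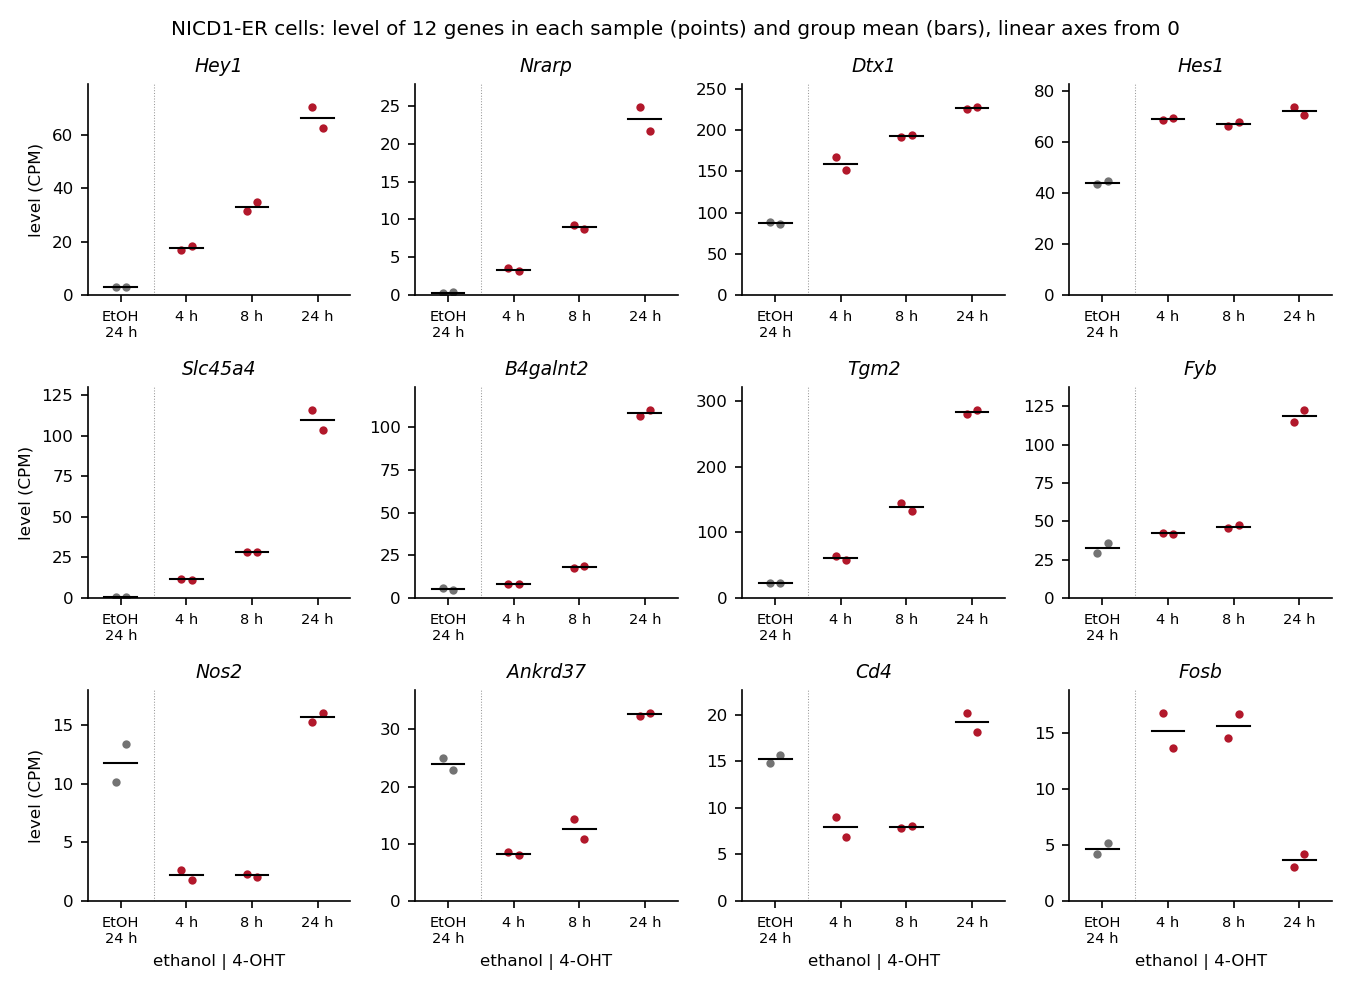
Level in CPM of 12 genes in each sample (points; grey for ethanol, red for 4-OHT) with the group mean as a bar, n = 2 per group, on linear axes that start at 0. Hey1, Nrarp, Slc45a4, B4galnt2 and Tgm2 climb at each time, Hes1 lies between 66.3 and 73.9 CPM at all times of 4-OHT, and Nos2, Ankrd37 and Cd4 are higher in ethanol than at 4 h, while Fosb is lower.

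Of the receptors, ligands and processing enzymes of the pathway, 4 of 26 tested genes were higher and 2 lower (8.00% and 5.41% over all genes). Their median was 0.00. Jag1, which encodes a Notch ligand, rose from 10.6 and 10.1 to 22.6 and 23.6 CPM (log2 1.14, SE 0.142, adjusted p = 3.48e-05). The receptor gene Notch4 rose from 3.34 and 4.1 to 8.48 and 8.64 CPM (log2 1.25, adjusted p = 0.00108), a call lost with DESeq2. Jag2 (log2 0.79), and on the lower side Notch2 (−0.17) and the glycosyltransferase gene Mfng (−0.18), passed narrowly, and each lost its call with DESeq2, without either 24 h library and without at least 1 of the 4 h samples. Notch1 was at 136 and 131 CPM at 4 h and at 188 and 206 CPM at 24 h (log2 0.55, adjusted p = 1.39e-06), with 160 and 156 CPM in ethanol. Reads of the endogenous gene and of the NICD1-ER construct cannot be told apart in these counts.

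Rbpj did not pass. It was at 160 and 166 CPM at 4 h and at 157 and 156 CPM at 24 h (log2 −0.05, adjusted p = 0.558). Of 20 tested genes for its coactivators and corepressors, 5 were higher and 2 lower, beside 8.00% and 5.41% over all genes. Maml3, a Mastermind coactivator gene, rose from 53.5 and 55.8 to 75.6 and 71.0 CPM (log2 0.43, adjusted p = 7.25e-04), and the corepressor gene Bcor fell from a mean of 190 to one of 151 CPM (log2 −0.33, adjusted p = 1.21e-04). The acetyltransferase genes moved apart, Kat2b by 0.22 and Kat2a by −0.23 log2 units, and both calls were lost with DESeq2 and without a 24 h library, replicate 3 for Kat2b and replicate 2 for Kat2a, and Kat2a also lost its call without the summed pair at 4 h.

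The largest rises were of genes nearly silent at 4 h. Prf1, which encodes the pore-forming protein perforin, had 1 count in all 4 h libraries and 158 at 24 h, where it was at 16.8 and 14.5 CPM. The ratio was 245.4, with an exact 95% interval of 43.42 to 9755 that covers counting error only. At 8 h Prf1 was at 1.07 and 0.929 CPM, and in ethanol it had no count. Cdh15, the M-cadherin gene, rose from 0.381 and 0.585 to 19.6 and 20.2 CPM (log2 5.41, adjusted p = 1.07e-09). Krt82, a hair keratin gene, and Igsf1, an immunoglobulin superfamily gene, each had 2 counts at 4 h and had 58 and 57 at 24 h, ratios of 45.05 (11.92 to 380.8) and 44.27 (11.71 to 374.4). Cd7, a T and NK cell surface glycoprotein gene, went from 2.38 and 2.15 CPM at 4 h through 6.23 and 4.46 CPM at 8 h to 39.4 and 36.5 CPM at 24 h (log2 4.03, adjusted p = 2.25e-10). Mgst1 (a microsomal glutathione transferase, log2 4.27), Ncan (neurocan, 4.23), Spi1 (the transcription factor PU.1, 3.94), Il10 (an anti-inflammatory cytokine, 3.92), Pdgfrb (a growth factor receptor, 3.81), Myo7a (a myosin, 3.54), Capn3 (a calpain protease, 3.35) and Neil2 (a DNA glycosylase, 3.2) rose from mean levels under 2 CPM. Each of these genes passed in all 11 alternatives tried.

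Large rises were also found among genes with a mean of 100 CPM or more at 24 h, some of them low at 4 h. B4galnt2, a glycosyltransferase gene, was at 8.20 and 8.39 CPM at 4 h, at 17.8 and 18.8 CPM at 8 h and at 106 and 110 CPM at 24 h (log2 3.71, SE 0.0981, adjusted p = 2.64e-13). Slc45a4, a solute carrier gene, went from 11.9 and 11.1 CPM through 28.4 and 28.6 CPM to 116 and 104 CPM (log2 3.24, SE 0.0948, adjusted p = 8.32e-13). Both had more of their log2 rise after 8 h than before it. Tgm2, the tissue transglutaminase gene, went from 64.6 and 57.2 CPM at 4 h to 279 and 286 CPM at 24 h (log2 2.19, SE 0.0582, adjusted p = 2.64e-13), with 144 and 132 CPM at 8 h. Cd22, an inhibitory sialic-acid-binding receptor best known from B cells, rose from 95.3 and 92.3 to 272 and 278 CPM (log2 1.54, SE 0.0521, adjusted p = 4.63e-12). Plxnd1, a semaphorin receptor gene (log2 2.18), and Akap6, an anchor gene for protein kinase A (1.59), also rose. Fyb, an adaptor of T cell receptor signalling, was at 42.7 and 41.9 CPM at 4 h, at 45.6 and 47.4 CPM at 8 h and at 115 and 123 CPM at 24 h (log2 1.48, adjusted p = 4.72e-10). Its 8 h step of 0.12 did not pass (adjusted p = 0.9), and the nebulin gene Neb had the same shape, with 0.18 at 8 h (adjusted p = 0.98) and 1.45 at 24 h (adjusted p = 1.25e-06).

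RBPJ binds the core TGGGAA, so the promoters of these genes were searched for it. RefSeq promoters (GRCm38.p6, the 250 bases before and the 50 after a start) matched 713 of the 945 higher genes. Hey1, Slc45a4, Tgm2, Cd7 and Il10 were among the higher genes without a match and were not searched, nor was Hes1. The letters TGGGAA or their reverse complement TTCCCA were in 22.5% of the 961 promoters of higher genes (216; Wilson 95% interval 19.9 to 25.2%) and in 22.5% of the 618 promoters of lower genes (139; 19.4 to 25.9%). Over all genes tested the share was 22.8% (2540 of 11161), and over all 32851 promoters 25.6%. Both shares lay within counting error of that of the genes tested. The longer GTGGGAA (reverse complement TTCCCAC), each match of which holds the shorter core, was in 5.52% of the promoters of higher genes, 7.61% of those of lower genes and 5.86% of those of all genes tested. The stretches of the promoters of Cd22 (chr7:30879109-30879228, minus strand) and Prf1 (chr10:61297636-61297755, plus strand) that hold the core are shown as examples among the genes described above. They were picked because they hold it, and most promoters of higher genes did not. Each runs from 200 to 81 bases before the start, 5′ to 3′ on the strand of the gene, with the core in capitals.
Cd22: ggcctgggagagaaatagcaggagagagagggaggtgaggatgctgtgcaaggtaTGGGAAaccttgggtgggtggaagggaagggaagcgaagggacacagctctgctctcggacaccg
Prf1: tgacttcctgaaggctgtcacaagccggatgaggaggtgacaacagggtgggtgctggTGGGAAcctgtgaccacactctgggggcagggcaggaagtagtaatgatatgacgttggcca
In Cd22 the core lies 145 to 140 bases before the start, in Prf1 142 to 137 bases before it. A match describes these letters only, and no binding was measured here.

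Some members of the cytotoxic and cytokine lists rose. Of 13 tested cytotoxic granule genes, 7 were higher and none lower, with a median of 0.38 log2 units, and over the alternatives 6 to 7 were higher. Besides Prf1, Nkg7, a granule membrane protein gene, rose from 1.05 and 0.975 to 9.80 and 6.74 CPM (log2 3.0, SE 0.336, adjusted p = 1.07e-05). The serpin genes Serpinb6b and Serpinb9, inhibitors of granule proteases, rose by 1.41 and 1.05 log2 units, Serpinb9 from 77.4 and 78.2 to 163 and 160 CPM (adjusted p = 3.24e-09). Among the granzyme genes, which encode granule proteases, Gzmb rose by 0.34 log2 units (adjusted p = 1.37e-04), while Gzma, Gzmc and Gzmm did not pass. The other listed granzyme genes had too few counts to be tested. Of 15 tested cytokine genes, 4 were higher and none lower (median 0.10), beside 8.00% and 5.41% over all genes, and over the alternatives 3 to 4 were higher and 0 to 3 lower, with 3 lower with no low-count filter and without replicate 3 at 4 h. Il22, a cytokine that acts on epithelia, was at 31.0 and 30.8 CPM at 4 h, at 45.4 and 42.5 CPM at 8 h and at 46.7 and 47.2 CPM at 24 h (log2 0.60, adjusted p = 1.5e-04). Its step from 4 to 8 h passed (0.52, adjusted p = 0.005) and its step from 8 to 24 h did not (0.08, adjusted p = 0.59). Lif, a cytokine of the interleukin-6 family, rose from 6.20 and 5.46 to 13.4 and 14.1 CPM (log2 1.2). Ifng, the interferon gamma gene, stayed low, at 0.763 and 1.37 CPM at 4 h and 3.77 and 3.37 CPM at 24 h (log2 1.88, adjusted p = 0.0052), a call lost with DESeq2, without replicate 2 at 24 h and without the summed pair at 4 h.

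Among 19 tested cytokine receptor genes 7 were higher and 1 lower (median 0.11), beside 8.00% and 5.41% over all genes. DESeq2 called 3 of them higher. Il2rb, the interleukin-2 receptor beta chain, went from 44.5 and 42.7 to 87.8 and 93.0 CPM (log2 1.04, adjusted p = 4.68e-08), a larger step than that of the alpha chain Il2ra. Il4ra, the interleukin-4 receptor, rose by 1.39 log2 units (adjusted p = 2.15e-04) and Il12rb1, an interleukin-12 receptor chain, by 0.44 (adjusted p = 3.7e-05). Il12rb1 was already at 121 and 118 CPM at 8 h. Chemokine and chemokine receptor genes divided, with 3 of 16 higher and 5 lower (median −0.06). Ccr7, a lymph node homing receptor, rose from 49.0 and 37.5 to 71.6 and 69.8 CPM (log2 0.66, adjusted p = 2.2e-04), and Ccr4 by 0.29 log2 units (adjusted p = 6.95e-04). Ccr2, a receptor for inflammatory chemokines, fell from 48.5 and 45.5 to 30.3 and 32.7 CPM (log2 −0.59, adjusted p = 8.11e-04). Cxcr3, Ccr6 and Ccl5 passed at −1.16, −0.69 and −0.90, calls that DESeq2 did not make and that were lost without replicate 3 at 24 h. Without replicate 2 at 24 h Cxcr3 and Ccl5 were lost too, without the summed pair at 4 h Ccr6 and Ccl5, and without replicate 3 at 4 h Ccl5.

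Of 23 tested T cell receptor genes 4 were higher and 3 lower (median −0.01), beside 8.00% and 5.41% over all genes. DESeq2 called 2 higher and 1 lower in this list. The largest difference was that of Cd5, an inhibitory surface receptor, at 2.38 and 2.93 CPM at 4 h and 1.13 and 0.632 CPM at 24 h (log2 −1.50, adjusted p = 0.0283), a call lost with DESeq2 and without any 1 of the samples at 4 h or 24 h. Cd4, the coreceptor gene, went from 8.96 and 6.83 CPM at 4 h through 7.79 and 7.99 CPM at 8 h to 20.2 and 18.1 CPM at 24 h (log2 1.22, adjusted p = 5.07e-05), but ethanol samples at 24 h were at 14.8 and 15.7 CPM. Ubash3a, a phosphatase gene that restrains receptor signalling, fell from 59.7 and 54.8 to 39.0 and 40.5 CPM (log2 −0.55, adjusted p = 2.09e-04). The kinase gene Fyn rose by 0.29 log2 units (adjusted p = 7.18e-04). Of 16 costimulatory and checkpoint receptor genes 6 were higher and 3 lower, with 3 and 1 by DESeq2. Havcr2, which encodes the checkpoint receptor TIM-3, rose from 19.4 and 20.1 to 53.3 and 54.4 CPM (log2 1.46, SE 0.104, adjusted p = 6.84e-08), and Cd96 fell by 0.40 log2 units (adjusted p = 8.67e-04). The lineage transcription factor list had 3 of 21 higher and 5 lower (median 0.05), with 0 and 2 by DESeq2. Tbx21, the T-bet gene, rose from 20.7 and 19.7 to 29.8 and 31.4 CPM (log2 0.59, adjusted p = 0.0014; lost with DESeq2), and Runx1 fell from 127 and 122 to 98.8 and 98.4 CPM (log2 −0.34, adjusted p = 4.64e-04).

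The deepest fall among named genes was that of Fosb, an AP-1 transcription factor gene, from 16.8 and 13.7 CPM at 4 h to 3.02 and 4.22 CPM at 24 h (log2 −2.12, SE 0.222, adjusted p = 5.19e-06). At 8 h Fosb was still at 14.5 and 16.7 CPM, and in ethanol at 24 h it was at 4.16 and 5.17 CPM. Trat1, an adaptor associated with the T cell receptor, fell from 8.49 and 7.80 to 2.64 and 2.32 CPM (log2 −1.72), and the peptide transporter gene Slc15a1 fell by 1.46 log2 units. The scavenger receptor gene Cd163 fell by 1.25 and the atypical cadherin gene Fat1 by 1.09, Fat1 from 27.9 and 32.4 to 15.1 and 12.4 CPM. Cmpk2, a mitochondrial nucleotide kinase gene, passed at −1.46, a call lost without replicate 3 at 24 h. Gja1, the connexin 43 gene, fell from 59.0 and 60.3 to 33.9 and 29.7 CPM (log2 −0.90, SE 0.0881, adjusted p = 2.7e-06), and the membrane glycoprotein gene Mpzl1 fell by 0.93. Among genes at 100 CPM or more the named falls were smaller, at most 0.59 log2 units, for Asb2, a ubiquitin ligase component, from 183 and 178 to 119 and 121 CPM (adjusted p = 5.19e-06). St3gal2, a sialyltransferase (−0.57), Sytl2, a vesicle transport protein (−0.50), Etv5, an ETS family transcription factor (−0.40), and Odc1, the first enzyme of polyamine synthesis (−0.39), followed. Receptors of the neuropilin family fell while Plxnd1 rose: Nrp1 went from 34.5 and 40.6 to 25.3 and 17.5 CPM (log2 −0.77, adjusted p = 0.0014), and Nrp2 passed at −1.02, a call lost with DESeq2 and without replicate 2 at 24 h. Of 12 tested genes of the neuropilin, plexin and semaphorin list 3 were higher and 3 lower, beside 8.00% and 5.41% over all genes.

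More interferon response and antigen presentation genes were higher than lower. Of 32 interferon response genes, 13 were higher and 2 lower (median 0.31), beside 8.00% and 5.41% over all genes. DESeq2 called 8 and 0 in this list. Gbp2, an interferon-induced GTPase gene, rose from 20.6 and 19.5 to 48.2 and 46.2 CPM (log2 1.22, SE 0.0941, adjusted p = 1.6e-07). The regulators Irf7 and Irf9 rose by 0.71 and 0.55 log2 units, and the RNA sensor gene Ifih1 by 0.71. Of 18 genes of MHC class I presentation 4 were higher and none lower (median 0.06, 2 by DESeq2), among them Nlrc5, the transactivator of class I genes, from 67.2 and 63.8 to 101 and 102 CPM (log2 0.63, adjusted p = 1.17e-06).

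Against 5.41% lower and 8.00% higher over all genes, ribosome biogenesis genes were the list with the most lower members among the 33 lists. Of 29 tested, 15 were lower and none higher, with a median of −0.21 log2 units, and over the alternatives 5 to 18 were lower, 5 by DESeq2. Rrp12, a ribosomal RNA processing factor, was at 147 and 145 CPM at 4 h, at 157 and 159 CPM at 8 h and at 114 and 113 CPM at 24 h (log2 −0.37, SE 0.0485, adjusted p = 6.75e-05). Polr1b, a subunit of RNA polymerase I, fell from 173 and 177 to 141 and 138 CPM (log2 −0.32, adjusted p = 1.77e-04), and Nop2, a nucleolar methyltransferase, by 0.26 (adjusted p = 9.44e-04). In ethanol Rrp12 was at 123 and 124 CPM, between its levels at 24 h and at 4 h. It was the only 1 of the 15 lower genes whose ethanol level lay nearer the 24 h level. In 2 of the 15 ethanol was at or above the 4 h level. By contrast none of 26 cytosolic ribosomal protein genes passed (median 0.04), nor did any of 25 oxidative phosphorylation genes (0.00) or 19 replication-dependent histone genes (0.06).

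Few proliferation genes passed, beside 8.00% higher and 5.41% lower over all genes. Of 25 mitosis genes only Cdc20 passed, at −0.20 (lost with DESeq2, without either 24 h library and without the summed pair at 4 h), and Mki67, the Ki-67 antigen gene, was at −0.01 log2 units (adjusted p = 0.963). Of 28 replication genes 3 were lower by at most 0.24 log2 units, with none by DESeq2. Of 6 tested inhibitors of the G1 kinases 3 were higher and none lower. Cdkn1a, the p21 gene, went from 36.8 and 36.1 to 54.7 and 47.6 CPM (log2 0.49, adjusted p = 9.17e-04), Cdkn2d rose by 0.34 and Cdkn1b, the p27 gene, by 0.33, the last 2 not with DESeq2. In the G1 list 4 of 18 were higher and 1 lower, with 1 and 1 by DESeq2. Of 13 BCL2 family genes 5 were higher and 1 lower, with 1 and 0 by DESeq2. In 4 of the 5 higher genes ethanol lay nearer the 24 h level. The mitophagy receptor gene Bnip3 rose from 54.4 and 57.5 to 85.6 and 87.5 CPM (log2 0.64, adjusted p = 3.07e-06), while its ethanol samples were at 87.8 and 85.3 CPM. Of 14 p53 target genes 6 were higher and none lower, with 1 by DESeq2. In 4 of these 6 ethanol lay nearer the 24 h level. In the BioNICD1 experiment described below, 2 of the 6 were lower and 0 higher.

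Many glycolysis and hypoxia genes were higher at 24 h, and most of these lay nearer that level in ethanol as well. Of 26 genes 13 were higher and 2 lower (median 0.17), beside 8.00% and 5.41% over all genes. DESeq2 called 11 and 0 in this list. Ankrd37, a known target of hypoxia-inducible factor, was at 8.49 and 8.00 CPM at 4 h and at 32.4 and 32.9 CPM at 24 h (log2 1.97, SE 0.143, adjusted p = 8.23e-08), with 24.9 and 23 CPM in ethanol. In 10 of the 13 higher genes the ethanol level lay nearer the 24 h than the 4 h level. The exceptions included Vegfa, the angiogenic growth factor gene, at 167 CPM in each 4 h sample, 268 and 279 CPM at 24 h and 174 and 168 CPM in ethanol (log2 0.71, adjusted p = 1.32e-08). Adm, the adrenomedullin gene, rose by 0.77 log2 units. The glucose transporter gene Slc2a3 and the glycolysis regulator gene Pfkfb3 were lower, by 0.22 and 0.35 log2 units, and DESeq2 called neither. Both calls were lost without replicate 2 at 24 h, and that of Slc2a3 also without replicate 3 at 24 h and without the summed pair at 4 h.

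Nos2, the inducible nitric oxide synthase gene, had a like pattern: 2.67 and 1.76 CPM at 4 h, 2.34 and 2.04 CPM at 8 h, 15.3 and 16.0 CPM at 24 h, and 10.2 and 13.4 CPM in ethanol (log2 2.71 between 4 and 24 h, adjusted p = 3.4e-07). Against ethanol the 24 h level of Nos2 did not pass (0.39, adjusted p = 0.21). The nitric oxide, arginine and polyamine list had 4 of 12 higher and 2 lower, with 1 and 1 by DESeq2. In 3 of the 4 higher genes ethanol lay nearer the 24 h level. The 2 lower ones were the polyamine synthesis genes Odc1 and Srm (−0.25). The call of Srm was lost with DESeq2, without replicate 3 at 24 h and without the summed pair at 4 h. Of 26 immediate early genes 6 were higher and 3 lower, beside 8.00% and 5.41% over all genes. DESeq2 called 3 and 2 in this list. Fosl2, an AP-1 gene, rose from 124 and 121 to 205 and 199 CPM (log2 0.72), with 168 and 163 CPM in ethanol, and Dusp1, a MAP kinase phosphatase gene, from 75.1 and 68.5 to 102 and 97.8 CPM (log2 0.46), with only 21.9 and 29.9 CPM in ethanol. Of 20 SOCS and DUSP feedback genes 5 were higher and 2 lower, with 2 and 0 by DESeq2. Socs3, an inhibitor of cytokine signalling, rose from 1.72 and 1.95 to 11.9 and 13.1 CPM (log2 2.78, SE 0.243, adjusted p = 7.02e-07).

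Of 26 unfolded protein and ATF4 response genes 5 were higher and 3 lower, beside 8.00% and 5.41% over all genes. DESeq2 called 1 and 0 in this list. In 4 of the 5 higher genes ethanol lay nearer the 24 h level, and with BioNICD1 3 of the 5 were lower and 0 higher. Ddit3, the CHOP transcription factor gene, rose from 58.7 and 51.9 to 75.2 CPM in both 24 h samples (log2 0.42, adjusted p = 0.00101), with 72.3 and 64.9 CPM in ethanol. Of 25 xenobiotic and oxidative stress genes 6 were higher and 1 lower. The drug efflux pump genes Abcb1a and Abcb1b rose by 0.87 and 0.55 log2 units, Abcb1b from 157 and 153 through 178 and 180 at 8 h to 229 and 225 CPM (adjusted p = 2.7e-07), while its ethanol samples were at 134 and 139 CPM. Reads of these closely related genes may be shared by the counting. Of 28 cholesterol and fatty acid synthesis genes 4 were higher, by at most 0.20 log2 units and none by DESeq2. In 3 of these 4 ethanol lay nearer the 24 h level. None of 5 cholesterol efflux genes passed. Of 8 estrogen receptor target genes 1 was higher and 2 lower. Of these Nrip1, a nuclear receptor corepressor, fell from 129 and 128 to 95.7 and 103 CPM (log2 −0.37, adjusted p = 2.6e-04). Of 18 integrin and adhesion genes 2 were higher and 2 lower, and none of 6 Gimap GTPase genes passed (median −0.32).

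**Figure D3:**
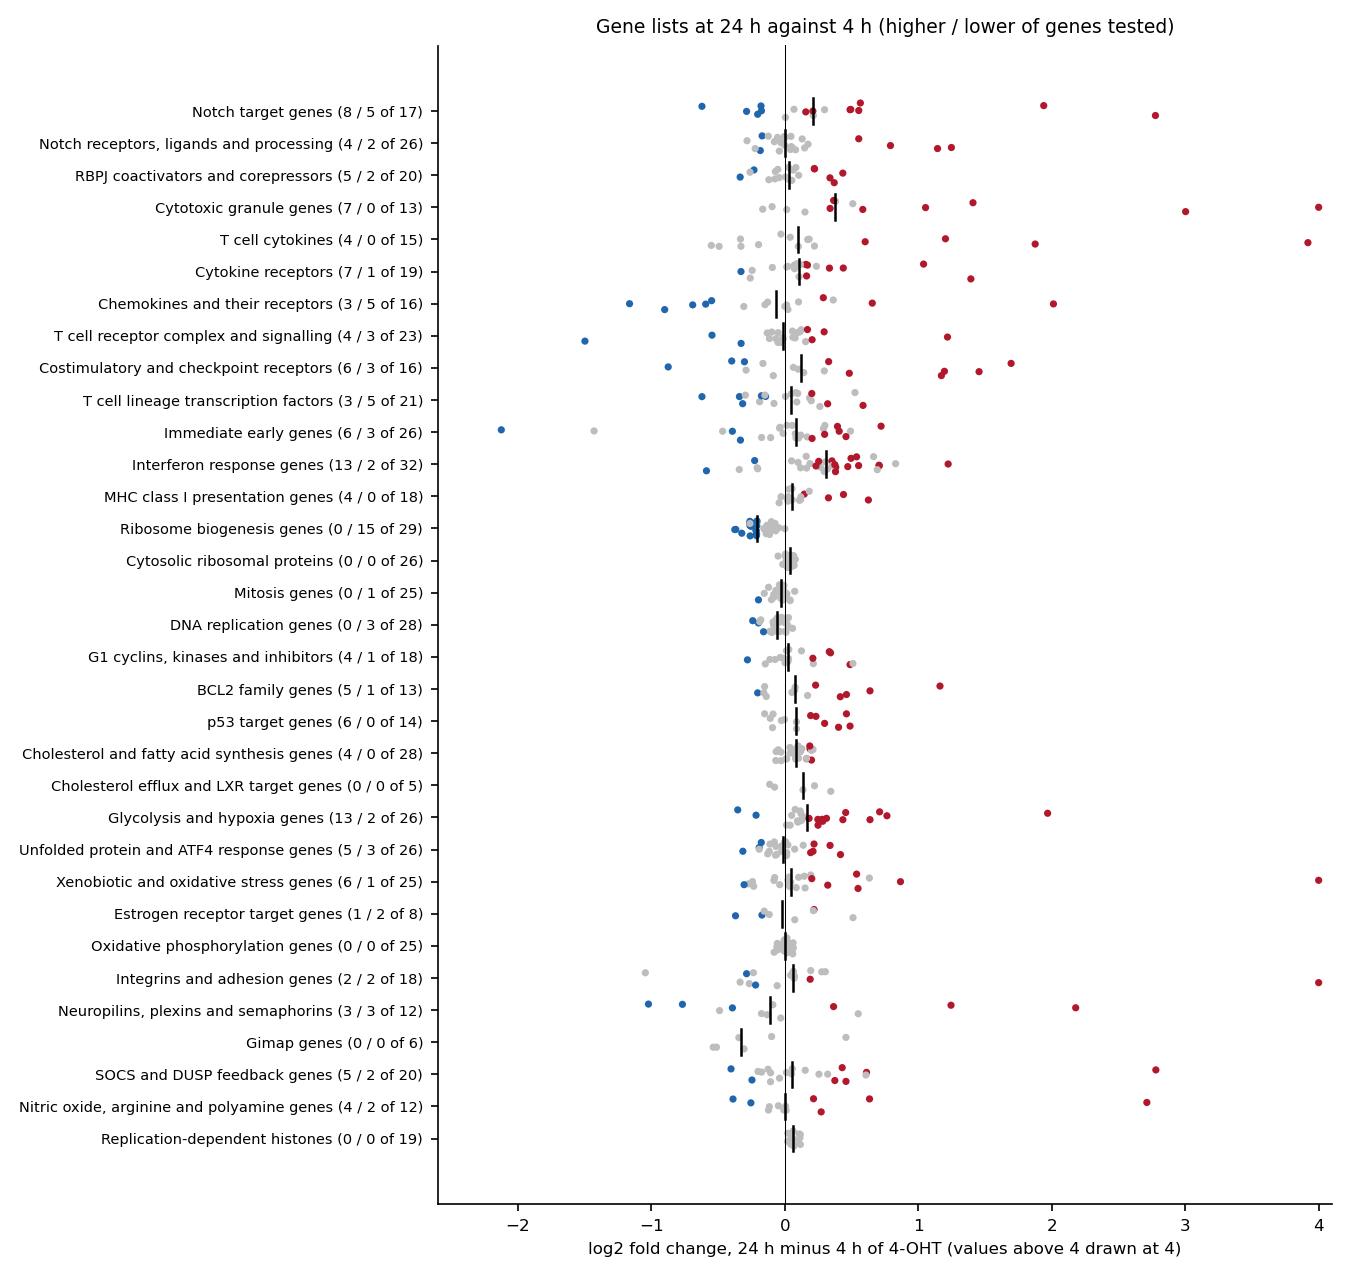
Each point is a tested gene of 1 of 33 lists, placed by its log2 difference, 24 h minus 4 h (values above 4 are drawn at 4); red points were higher, blue lower and grey did not pass, bars are list medians, and the labels give higher / lower of genes tested. Single red points lie past 2 log2 units in several lists, among them Nrarp, Prf1, Il10, Cdh15, Mgst1, Socs3 and Nos2, and the ribosome biogenesis points all lie close to or below 0, with 15 of 29 lower.

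Most of the difference arose after 8 h, though the step from 8 to 24 h was also longer than that from 4 to 8 h. The counts and shares below are therefore no measure of rate. Between 4 and 8 h only 56 genes passed (0.474%), 45 higher (0.381%) and 11 lower (0.0932%), while between 8 and 24 h 1582 passed (13.4%), 904 higher (7.66%) and 678 lower (5.74%). These comparisons share libraries. For genes higher at 24 h than at 4 h, a median of 19.2% of the log2 difference was reached at 8 h, with quartiles of −1.81 and 37.1%, and 96 of 945 were past the midpoint. For lower genes the median was 5.08% and 52 of 639 were past the midpoint. Tgm2 (1.17 of 2.19 log2 units) and Cd22 (0.75 of 1.54) were near the midpoint at 8 h, Fyb and Fosb were still near their 4 h levels, and Il22 was close to its 24 h level. The count between 4 and 8 h was 12 by DESeq2. Without the summed pair at 4 h it was 111, with 36 higher and 75 lower, so the balance of directions turned, and without the summed pair at 8 h it was 12, all higher.

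No library holds cells kept in ethanol for 4 h, so between 4 and 24 h the time of exposure to 4-OHT and the time in culture cannot be told apart. Ethanol at 24 h gives the level without 4-OHT at the later time. Of the 945 genes higher at 24 h, 386 (40.8%) had ethanol at or below the 4 h level and 268 (28.4%) had ethanol nearer the 24 h level, 60 of them at or above it. Of the 639 lower genes, 158 (24.7%) had ethanol at or above the 4 h level and 198 (31.0%) had it nearer the 24 h level. The same 4 h and 24 h libraries chose the genes and set both ends, so these shares are a description. Of the 184 genes higher by at least 1 log2 unit, 118 had ethanol at or below the 4 h level and 25 had it nearer 24 h. Hey1, Nrarp, Slc45a4, Tgm2 and Cd22 were below their 4 h level in ethanol, while Nos2, Ankrd37, Cd4 and Bnip3 were nearer their 24 h level.

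**Figure D4:**
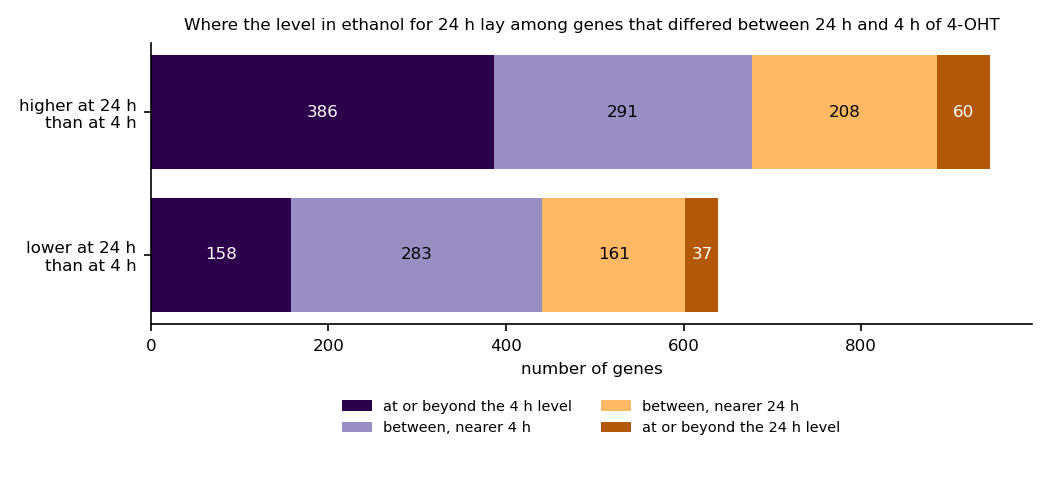
Numbers of genes higher (top bar, 945) or lower (bottom bar, 639) at 24 h than at 4 h of 4-OHT, divided by where their mean level in ethanol for 24 h lay. Ethanol was at or beyond the 4 h level in 386 higher and 158 lower genes, and at or beyond the 24 h level in 60 and 37.

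A second experiment of the series shares no library with these. Cells labelled Control_sgRbpj received biotin-tagged NICD1 (BioNICD1) or its control vector (Biocontrol), 3 libraries each, with 8113019 to 10069390 counts. RBPJ-depleted cells labelled sgRbpj with the same vectors, also 3 libraries each, were fitted with them and share the estimate of the spread. In the Control_sgRbpj libraries the 10 most abundant genes took 4.46 to 6.2% of counts, against 0.933 to 1.06% at 4 h and 24 h. Of 11315 genes tested there 3723 passed (32.9%), 2114 higher (18.7%) and 1609 lower (14.2%). Of 878 genes higher at 24 h and tested in both, 413 (47.0%) were also higher with BioNICD1, against 18.2% of all 11001 genes tested in both, and 126 (14.4%) were lower, against 14.2%. The 413 are 20.7% of the 1997 genes higher with BioNICD1. Of the 184 genes up by at least 1 log2 unit only 125 passed the low-count filter there, and 90 of these (72.0%) were higher with BioNICD1. A gene nearly silent with Biocontrol could pass that filter only through its counts in another group, such as BioNICD1. The filter thus favoured higher calls among such genes, and the 72.0% cannot be set directly beside the 18.2% of all genes. How far this also raised the 47.0% was not tested. Of 630 lower genes, 82 (13.0%) were lower with BioNICD1 and 146 (23.2%) higher.

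Named genes show both kinds. With BioNICD1 Tgm2 was at 312 ± 5.44 CPM against 0.819 ± 0.291 CPM with Biocontrol, Cd22 at 203 ± 14.2 against 0.241 ± 0.247 CPM, and Hey1 at 72.5 ± 1.07 against 0.208 ± 0.189 CPM (mean ± SD, n = 3 each). Il2ra, which differed by only 0.16 log2 units between 4 and 24 h, was at 482 ± 28.5 CPM with BioNICD1 and 0.946 ± 0.632 CPM with Biocontrol. Hes1, which differed by 0.07 log2 units between 4 and 24 h, was at 17.2 ± 0.309 against 2.22 ± 1.22 CPM. Nos2 (log2 −0.62, adjusted p = 0.101) and Ankrd37 (0.48, adjusted p = 0.191) did not pass with BioNICD1. Of the 13 higher glycolysis and hypoxia genes, however, 8 were higher with BioNICD1 and 1 lower. Of the 13 higher interferon response genes all 13 were higher with BioNICD1, and of the 15 lower ribosome biogenesis genes 1 was higher and none lower. Nrp1 and Ccr2, lower at 24 h, were also lower with BioNICD1, Nrp1 at 3.90 ± 0.626 against 34.3 ± 1.70 CPM, while Asb2, lower at 24 h, was higher there, at 87.3 ± 6.23 against 10.6 ± 0.761 CPM.

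**Figure D5:**
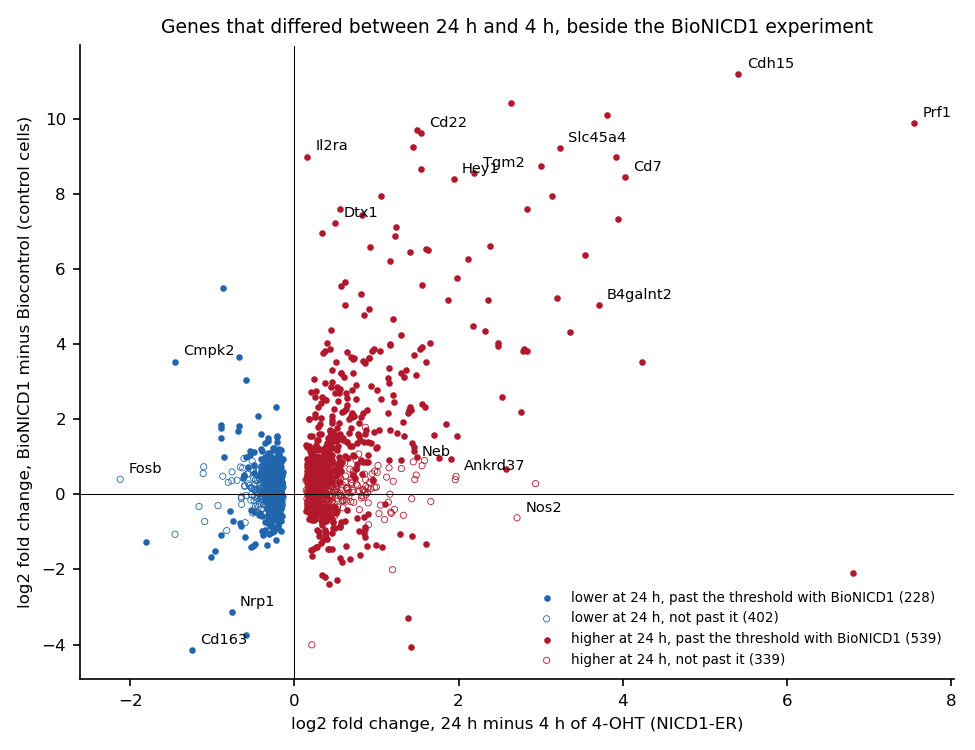
Genes that passed between 24 h and 4 h and were tested in both experiments, with the log2 difference 24 h minus 4 h on the horizontal axis and BioNICD1 minus Biocontrol on the vertical axis; red were higher and blue lower at 24 h, filled points passed with BioNICD1 and open points did not. Of the filled red points 413 lie above and 126 below 0, and Nos2 and Ankrd37 are open; fitted values of genes near 0 in 1 group are no bound.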

How the data were processed

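RNA sequencing was deposited as 1 table of raw read counts for 24391 gene symbols in 65 columns, whole numbers with a different total per column. Of these, 22 columns were used (10 NICD1-ER, 12 BioNICD1) and 43 were not; 2 columns share the ethanol replicate 1 heading and could not be told apart, and 24 h replicate 1 of 4-OHT was not analysed here. The submitters' processing notes name TopHat2 2.1.1, Picard, deepTools and build mm9 without roles; the counting tool, annotation and use of strand are not given in the sources used here, so overlapping and antisense genes are uncertain. Region lists on mm9 were not used here.

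Library pairs were compared by a mean chi-square across the genes with 50 or more counts: 0.907 for 4 h replicates 1 and 2 (2.12 and 1.33 for the other pairs), 0.835 for 8 h replicates 1 and 2, and 0.928 at 24 h. Replicates 1 and 2 were therefore summed at 4 h and at 8 h. edgeR 4.0.16 (R 4.3.3) fitted the 8 samples with TMM factors (0.993 to 1.01), filterByExpr (minimum count 10), 1 mean per group, quasi-likelihood F-tests (two-sided, 4 residual degrees of freedom), a prior count of 0.125 and Benjamini-Hochberg adjustment over all genes tested, with a threshold of 0.05. The BioNICD1 experiment was fitted alone, with all 12 libraries, those of sgRbpj cells included (8 residual degrees of freedom). Fold changes are log2. The SE beside them was taken as the size of the log2 difference divided by the square root of the F statistic. It can be smaller than counting error where counts are few. Levels are counts scaled to TMM-adjusted library totals (CPM), not per length. The fit was also run on simulated counts with known changes. These were drawn independently for each sample, so they do not test dependence between replicates. Alternatives used DESeq2 1.42.0, other scaling, filtering and grouping, and left out each sample in turn; a lone sample was then assumed to vary like the other groups.

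Genes were named by rule: the 15 largest changes in each direction at 5 CPM or more and the 8 largest at 100 CPM or more, 8 set genes, and up to 4 members of each of 39 lists in each direction, or their most expressed members. The members and lists were chosen with earlier results of these data known. Promoters came from RefSeq (GRCm38.p6) by symbol. Intervals cover counting error only.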

Additional observations from a re-analysis of the deposited data

How the results depend on the processing

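Between 24 h and 4 h, DESeq2 called 433 genes, of which 80.8% were higher, against 59.7% of the 1584 here; 431 of its genes were among the 1584. It put 115 genes up and 6 down by at least 1 log2 unit (184 and 17 here). Leaving out each sample in turn gave 702 to 1535 genes, and 7 to 17 lower by at least 1 log2 unit. Summing the 24 h libraries gave 1063, no low-count filter 1922 and each library as a sample 1940. For 8 h against 4 h (56), DESeq2 gave 12, no low-count filter 126, each library as a sample 98 and leaving out each sample 12 to 111. For 24 h against 8 h (1582), DESeq2 gave 350, a fit of only the groups compared 2431, and leaving out each sample 637 to 1173. For BioNICD1 (3723), a fit of only the groups compared, without the sgRbpj libraries, gave 5847. With the longer motif GTGGGAA the share of promoters was 5.52%, since fewer sites hold it. Otherwise the cause was not tested. Of 219 named genes 177 passed; 91 of these passed in every alternative, DESeq2 lost 83, and no call reversed.

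Residuals of 13 same-number pairs correlated at −0.00218 to 0.399, and 8 of the 13 were over 0.1. In groups of 2 libraries the residuals mirror each other, so the 13 pairs are not separate checks. The labels name nothing shared, so the numbers were not taken to pair the libraries, but a shared effect was not excluded. Other pairs correlated at −0.399 to 0.314, and 7 of 10 libraries correlated best with their own number. With the replicate number as a block and each library as a sample, 2231 genes passed between 24 h and 4 h and 193 between 8 h and 4 h.

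With 2 samples per time and 3 counts worth 0.561 to 0.627 CPM, small differences of weakly expressed genes were not detectable at this depth.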
